A study of Mus musculus with 42 samples.

Results

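Immobilized tibialis anterior muscle of Sesn2SkM-Tg mice was compared with resting (basal) muscle of the same genotype, over all genes of the first of 2 sequencing sets. The comparison rested on 8 RNA-sequencing libraries, 4 immobilized and 4 basal, of the 22 libraries in that set and the 42 in the series, and 13705 genes were tested. All mice were C57BL/6J males of 4 months. Sesn2SkM-Tg mice carry human Sesn2 behind a Tet-regulated promoter together with the MCK-tTA construct, which restricts the transgene to skeletal muscle fibers. Sesn1SkM-Tg mice, used below only for contrast, carry human Sesn1 behind the MCK promoter, and WT mice carry neither transgene. In the immobilized groups the right hindlimb had been fixed with plastic sticks and a bandage, for 3 days by the study's account (the labels give no time), whereas basal mice had received no atrophy-inducing treatment. Immobilized and basal muscles thus came from different mice, and the labels do not say which of them were littermates.

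Sestrins are stress-inducible proteins. They bind GATOR2, through which amino acid supply controls the growth kinase mTORC1, and they act on AMPK and AKT. When a muscle is not used, its fibers shrink. FoxO transcription factors, held in the cytoplasm when phosphorylated by AKT, switch on ubiquitin ligases such as Trim63 (MuRF1) and Fbxo32 (Atrogin-1), and the tagged contractile proteins are degraded by the proteasome. Loss of stretch and contraction also changes the genes of the Z-disc, of the excitable membrane and of energy metabolism.

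Values are the normalized counts of the deposited table, on a linear scale near CPM. They are given as mean ± SD over 4 libraries unless stated. Log2 fold changes are immobilized minus basal on the log2(value + 1) scale, with the standard error of the fit, and this scale understates the change of genes with values near or below 1. A gene was called higher or lower when limma's moderated test gave it an adjusted p under 0.05 and its log2 fold change reached 0.25 in either direction. The labels name the libraries only as replicates, so the p-values measure the spread between these samples.

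The summed normalized counts were 1068495 to 1276769 in the basal libraries and 832931 to 960596 in the immobilized libraries. The 10 most abundant genes held 24.6 to 26.4% of that sum in the basal and 17.2 to 22.7% in the immobilized libraries. Library 2 stood apart in each group: its median correlation with the other libraries of its group was 0.963 against 0.989 in the other 3 basal libraries, and 0.972 against 0.983 to 0.986 in the other 3 immobilized libraries. Basal library 2 also held a sum over 6 hemoglobin and red cell genes of 1344 normalized counts against 239 to 349 in the other 3. Immobilized library 2 had the highest macrophage and neutrophil marker sums, which are given with those cell types. Results that rest on these libraries are given with and without them.

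The mouse Sesn2 gene (ENSMUSG00000028893, chr4:132492032-132510501 in GRCm38) was measured at 6.54, 10.9, 12.6 and 13 in the basal libraries and 13.6, 14.5, 11.8 and 8.01 in the immobilized libraries. The groups overlapped, and the difference did not pass the test (log2 fold change 0.15 ± 0.20, adjusted p = 0.61). WT libraries held 2.18 to 3.39 in basal and 1.86 to 2.96 in immobilized muscle, and Sesn1SkM-Tg libraries 2.84 to 4.63. Every Sesn2SkM-Tg library thus lay above every library of the other genotypes, by 1.66 on the log2 scale between the basal groups of Sesn2SkM-Tg and WT (exact permutation test, two-sided p = 0.029, the smallest that 4 against 4 libraries allow). How much of this level came from reads of the human transgene is not given in the sources used here. Sesn1 (ENSMUSG00000038332, chr10:41809935-41908424 in GRCm38), a sestrin induced by p53, was measured at 11.7, 7.0, 12.1 and 11.8 in the basal libraries and 15.6, 16.2, 14 and 13.9 in the immobilized libraries. Every immobilized library lay above every basal one, but the change missed the threshold (log2 fold change 0.47 ± 0.22, adjusted p = 0.11). In WT muscle the Sesn1 change was -0.41 (adjusted p = 0.2) and in Sesn1SkM-Tg muscle -0.59 (adjusted p = 0.06), and the difference between the Sesn2SkM-Tg and WT effects did not pass the interaction test (0.88 ± 0.32, adjusted p = 0.53). Sesn3 was low, with means of 1.85 in the basal and 1.3 in the immobilized libraries and a log2 fold change of -0.27 (adjusted p = 0.47).

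Of the 13705 genes, 4204 (30.7%) were called, 2055 (15%) higher and 2149 (15.7%) lower in immobilized muscle, and the median log2 fold change was 0.003. List counts below are to be read against these shares. The libraries of both groups did not overlap for 4142 genes (30.2%). Without both libraries numbered 2, 1724 genes were called higher and 1748 lower (25.4% of 13685), and 3012 of these were called in the same direction with all libraries. The balance of directions depended on the scaling. With every library scaled to the same sum, the median of all genes rose by 0.253, 3934 genes were called higher and 958 lower, and 80.4% of calls were higher, against 48.9% in the table as deposited. Quantile normalization gave 49.2% and median centring 46.2%. Directions below are therefore relative to the deposited scaling, and they are marked where the same-sum scaling turned them.

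**Figure D1:**
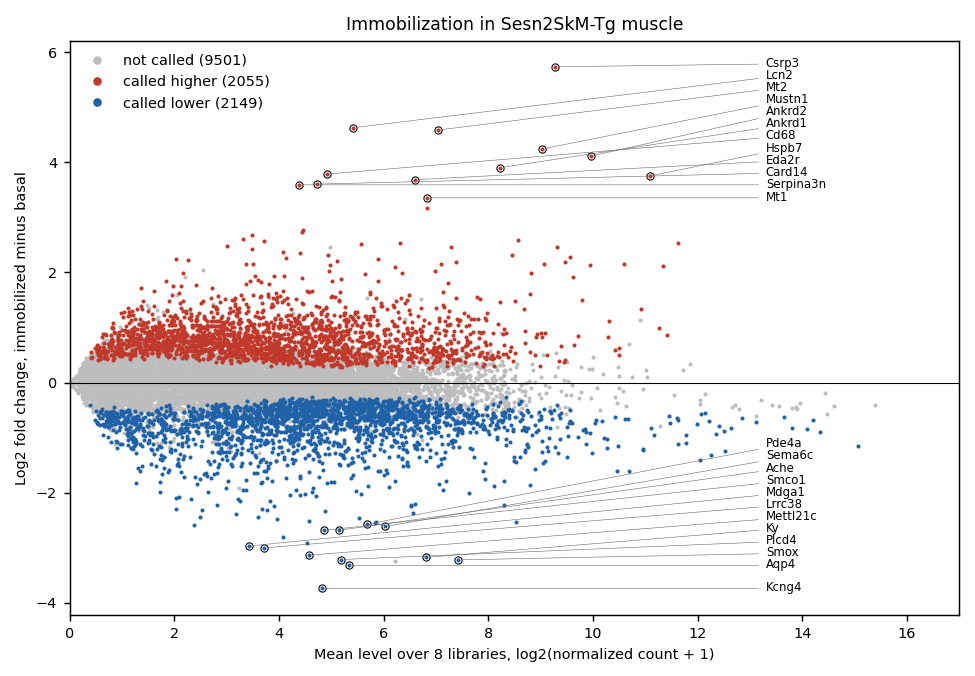
Mean level of each of 13705 genes over the 8 Sesn2SkM-Tg libraries, as log2(normalized count + 1), against its log2 fold change, immobilized minus basal. Grey points did not pass the call, red points are the 2055 genes called higher and blue points the 2149 called lower; the labelled genes are the 12 of each direction named by size, from Csrp3 at 5.74 down to Kcng4 at -3.74.

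Several of the genes that rose most encode proteins of the Z-disc or partners of titin. Csrp3 (ENSMUSG00000030470, chr7:48830398-48848033 in GRCm38), the muscle LIM protein of the Z-disc, was at 28.8, 39.3, 11.5 and 11.7 in the basal libraries and 843, 2103, 1028 and 843 in the immobilized libraries. The immobilized libraries stood far above all basal ones, with library 2 the highest, and the mean rose from 22.8 ± 13.7 to 1204 ± 605 normalized counts (log2 fold change 5.74 ± 0.73, adjusted p = 8.5e-06). Mustn1, a nuclear protein of musculoskeletal tissue, was measured at 43.3, 59.7, 36.6 and 57 in the basal libraries and 639, 1639, 759 and 947 in the immobilized libraries. All 4 immobilized libraries lay above every basal one, library 2 again the highest (log2 fold change 4.24 ± 0.44, adjusted p = 8.2e-07). The titin-binding ankyrin repeat proteins Ankrd2 (117, 222, 47 and 65.9 in the basal libraries and 1082, 3547, 1630 and 1213 in the immobilized libraries) and Ankrd1 (10.2, 28.7, 7.75 and 102 in the basal libraries and 159.9, 1436, 126 and 511 in the immobilized libraries) are both induced by stretch. Ankrd2 rose with a log2 fold change of 4.11 ± 0.68 (adjusted p = 0.00013) and Ankrd1 with 3.9 ± 0.87 (adjusted p = 0.0019). Neither gene's groups overlapped, and immobilized library 2 was the highest for both, far above libraries 1 and 3 for Ankrd1.

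Of 26 mechanical stress and Z-disc genes, 12 were called higher and 4 lower, with a median log2 fold change of 0.76. Fhl1, a LIM protein of the sarcomere, rose from 948 ± 218 to 5375 ± 231, Flnc, the muscle filamin, from 907 ± 196 to 4236 ± 2201, and Xirp1, an actin-binding protein of injured Z-discs, from 181 ± 86.9 to 881 ± 634. Their log2 fold changes were 2.53, 2.11 and 2.15. The PDZ-LIM genes Pdlim3 (1.92), Pdlim1 (1.26) and Pdlim5 (0.82) rose too, as did Nrap (0.87) and Ankrd23 (0.99). The 4 that fell included genes of the fast fiber's Z-disc. Myoz3 (from 48.3 ± 11.7 to 8.87 ± 2.83, log2 fold change -2.33) and Myoz1 (-1.18) bind calcineurin, Actn3 (-0.88) is the fast alpha-actinin, and Synpo2 (-1.03) bundles actin. Fhl1, Flnc and Ankrd2 were also among the 6 genes with the greatest gain in normalized counts. The others were Car3, a muscle carbonic anhydrase (from 1106 ± 271 to 2757 ± 571, log2 fold change 1.33), Cryab and Hspb7.

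Cryab and Hspb7 are small heat shock proteins, chaperones that hold unfolding sarcomere proteins. Hspb7 was at 326, 505, 165 and 228 in the basal libraries and 2723, 6516, 3419 and 3420 in the immobilized libraries, so that each immobilized library was several times the highest basal one (log2 fold change 3.75 ± 0.42, adjusted p = 1.9e-06). Cryab rose from 566 ± 231 to 2520 ± 1123 (log2 fold change 2.15), Hspb1 from 103 ± 42.8 to 651 ± 349 (2.59), Hspb6 by 1.12 and Hspb8 by 0.89 on the log2 scale. In this list 5 of 9 genes were called higher and none lower (median 0.89). Among 21 chaperones of the HSP70, HSP90 and HSP40 families, 3 were called higher and 1 lower (median 0.12), 5 higher and 2 lower without basal library 2, and 8 higher and none lower with same-sum scaling. Hsp90ab1, a constitutive HSP90, rose by 0.62 and Hspd1, the mitochondrial chaperonin, fell by 0.46 on the log2 scale.

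**Figure D2:**
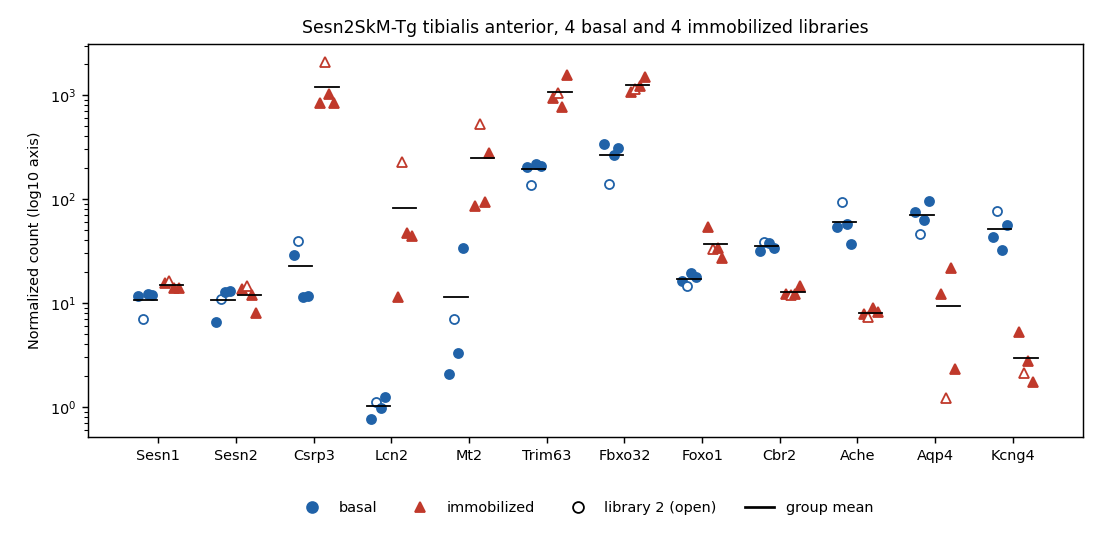
Normalized counts (log10 axis) of 12 genes in each of the 4 basal (circles) and 4 immobilized (triangles) Sesn2SkM-Tg libraries; open symbols mark library 2 of each group and short bars the group means. Csrp3, Lcn2, Mt2, Trim63 and Fbxo32 stand higher and Kcng4, Aqp4 and Ache lower in every immobilized library than in any basal one, while the Sesn2 groups overlap.

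Metallothioneins, cysteine-rich proteins that bind zinc and copper, were among the strongest responses. Mt2 was at 2.08, 7.08, 3.29 and 33.6 in the basal libraries and 85.7, 533, 94.6 and 277 in the immobilized libraries and Mt1 at 7.72, 21.9, 9.16 and 26.7 in the basal libraries and 66.3, 465, 93.8 and 207 in the immobilized libraries. For both genes the immobilized libraries all exceeded the basal ones, with basal library 4 the highest of its group (Mt2 log2 fold change 4.59 ± 0.61, adjusted p = 1.5e-05; Mt1 log2 fold change 3.36, adjusted p = 2.2e-05). Of 12 genes for metal handling, 5 were called higher and 2 lower. Hmox1, heme oxygenase, rose by 1.43 and the ferritin light chain Ftl1 by 1.05, and the transferrin receptor Tfrc fell by 1.21 on the log2 scale. The zinc exporter Slc30a1 rose (0.51) and the zinc transporter Slc30a2 fell (-1.11).

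Acute-phase genes, targets of IL6 and STAT3, rose with them. Lcn2, lipocalin 2, was at 0.765, 1.12, 0.966 and 1.23 in the basal libraries and 11.4, 228, 46.6 and 44.4 in the immobilized libraries. All immobilized libraries were above all basal ones, yet they spread widely, with library 2 the highest and library 1 the lowest (log2 fold change 4.63 ± 0.52, adjusted p = 1.9e-06). Serpina3n, a secreted protease inhibitor, was at 1.62, 1.48, 0.638 and 2.15 in the basal libraries and 11.5, 83.6, 13.8 and 44.3 in the immobilized libraries (log2 fold change 3.59 ± 0.45, adjusted p = 7.3e-06). Of the 22 genes tested in this list, 16 were called higher and none lower (median 1.15), and without immobilized library 2 the count fell to 9. The STAT3 targets Socs3 (1.51), Pim1 (1.45) and Junb (1.42) rose, as did the receptors Osmr (1.14) and Il6ra (1.17) and the transcription factors Cebpd (1.52), Cebpb (0.93) and Stat3 itself (0.85).

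The ubiquitin ligases of atrophy rose strongly. Trim63 was at 205, 138, 218 and 209.6 in the basal libraries and 947, 1040, 768 and 1573 in the immobilized libraries, and Fbxo32 at 339, 141, 265 and 310.1 in the basal libraries and 1075, 1153, 1221 and 1499 in the immobilized libraries. In both genes the lowest immobilized library was above the highest basal library, by a wide margin (Trim63 log2 fold change 2.46 ± 0.28, adjusted p = 2e-06; Fbxo32 log2 fold change 2.29 ± 0.33, adjusted p = 3e-05). Of 38 atrophy-related ubiquitin ligases and other atrogenes, 16 were called higher and 3 lower (median 0.28). Fbxo30, the MUSA1 ligase, rose by 0.91, and among the muscle cullin adaptors Klhl40 (1.15), Klhl41 (0.69), Asb5 (0.91) and Asb11 (0.91) rose. Trim55, the MuRF2 relative of Trim63, fell from 42.2 ± 3.8 to 23.4 ± 2.55 (-0.83), Asb14 fell by 0.84 and Ubr2 by 0.34. The polyubiquitin gene Ubb rose (0.51).

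The promoter of Trim63 is shown because it carried adjacent matches of the 2 motifs most tied to atrogene induction, in capitals: the glucocorticoid receptor half-sites (AGAACANNNTGT, here on the other strand) 206 to 195 bases and a FoxO motif (GTAAACA, likewise on the other strand) 194 to 188 bases before the RefSeq start, without overlap. The 250 bases before the start lie at chr4:134314870-134315119, plus strand, GRCm38.p6.
Trim63: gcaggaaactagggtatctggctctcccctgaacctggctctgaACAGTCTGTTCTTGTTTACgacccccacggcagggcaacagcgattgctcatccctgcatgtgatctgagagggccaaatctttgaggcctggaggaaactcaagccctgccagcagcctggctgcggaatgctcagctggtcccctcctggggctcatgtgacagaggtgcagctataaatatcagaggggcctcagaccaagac
Promoters of 9892 tested genes were searched on both strands, over the 250 bases before the start. The FoxO motif was in 2.08% of them, 2% for genes called higher and 2.11% for genes called lower. The glucocorticoid receptor motif was in 0.253% of promoters, 0.266% for genes called higher and 0.255% for genes called lower. It was in 1 of 17 glucocorticoid-responsive genes with a promoter entry, Trim63 itself. Of 31 atrogenes with a promoter entry, Trim63 and Mdm2 held the FoxO motif; Fbxo32 had no entry in the table used.

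Most subunits of the proteasome rose. Of 38 genes, 32 were called higher and none lower, with a median log2 fold change of 0.78, against 0.003 over all genes. The lid subunit Psmd8 was at 165, 225, 198 and 179 in the basal libraries and 464, 591, 506 and 591 in the immobilized libraries, and the groups did not overlap (log2 fold change 1.49 ± 0.15, adjusted p = 5.4e-07). The base ATPase Psmc4 rose by 1.3, the ubiquitin receptors Psmd4 by 1.26 and Adrm1 by 0.94, the lid subunit Psmd11 by 1.22 and the catalytic subunit Psmb5 by 0.58. Nearly the same count, 33, was reached without both libraries numbered 2, and 34 with libraries scaled to the same sum.

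Of 43 autophagy genes, 7 were called higher and 9 lower (median -0.01), shares close to the 15 and 15.7% over all genes; without immobilized library 2, 6 and 4, and with same-sum scaling, which turned the median to 0.29, 18 and 2. The cargo receptor Sqstm1 (p62) was at 439, 483, 469.8 and 411 in the basal libraries and 1058, 1593, 969 and 1615 in the immobilized libraries, with no overlap (log2 fold change 1.5 ± 0.17, adjusted p = 2.9e-06). The ATG8 proteins Gabarapl1 (1.44), Gabarapl2 (0.63) and Map1lc3b (0.36), the phosphoinositide reader Wipi1 (0.69), the mitophagy receptor Bnip3 (0.74) and Uvrag (0.62), a partner of Becn1, rose. The initiating kinase Ulk2 fell from 116 ± 26.5 to 53.5 ± 8.53 (-1.09), and Atg9a (-0.63), Atg101 (-0.56), Becn1 (-0.30) and the mitophagy kinase Pink1 (-0.50) fell as well.

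Of 36 lysosomal genes, 14 were called higher and 1 lower (median 0.3), and 9 higher without immobilized library 2. The largest rises were those of Cd63 (1.52) and the protease Ctss (1.51), which is also on the macrophage marker list. The proteases Ctsl (from 68.4 ± 4.04 to 136 ± 29.8, log2 fold change 0.95) and Ctsd (0.84) rose, as did the proton pump subunit Atp6v1h (1.16) and the cholesterol exporter Npc1. Npc1 was at 61.3, 52.1, 64.1 and 76.4 in the basal libraries and 117, 105, 102 and 140.1 in the immobilized libraries, so each immobilized library exceeded each basal one (log2 fold change 0.86 ± 0.17, adjusted p = 0.00053). Psap, the sphingolipid activator precursor, fell (-0.65). Of 11 calpain and caspase genes, 5 were called higher and 2 lower; Capn1 (-1.05) and the muscle-specific Capn3 (-1.35) fell, and Capn2 (0.46) and the inhibitor calpastatin, Cast (0.79), rose.

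The genes between insulin and FoxO gave calls in both directions, 8 higher and 7 lower of 30 (4 lower without immobilized library 2). With same-sum scaling 10 were higher and 3 lower, and the median moved from 0.07 to 0.38. Foxo1 was at 16.2, 14.6, 19.4 and 17.8 in the basal libraries and 53.6, 33, 33.5 and 26.9 in the immobilized libraries, above basal in all immobilized libraries (log2 fold change 1.03 ± 0.19, adjusted p = 0.00042). Foxo4 (-0.88) and Foxo6 (-1.66) fell, and Foxo3 gave 0.32 (adjusted p = 0.16). Akt1 rose from 84.3 ± 23.7 to 181 ± 22.8 (1.12) while Akt2, the isoform of insulin-stimulated glucose uptake, fell from 327 ± 27.6 to 219 ± 28.3 (-0.58). The docking protein Irs1 (-1.2), the glucose transporter Slc2a4 (-0.67) and the GLUT4 traffic regulator Tbc1d4 (-1.64) fell, whereas the binding proteins Igfbp3 (1.23) and Igfbp4 (0.87) and the regulatory subunit Pik3r1 (0.77) rose.

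Along the sestrin, GATOR and mTORC1 axis, 14 of 48 genes were called lower and 4 higher (median -0.19), 9 lower without immobilized library 2. This direction turned with same-sum scaling, which gave a median of 0.11 and 1 lower against 13 higher. Of 7 AMPK subunits, 3 were called, all lower: the fast-muscle gamma subunit Prkag3 fell by 1.38 (from 68.2 ± 16.2 to 25.7 ± 6.58), Prkag2 by 0.80 and Prkab2 by 0.68 on the log2 scale. The mTOR inhibitor Deptor (-1.03), the GATOR genes Depdc5 (-0.47) and Wdr24 (-0.58), Tsc2 (-0.47) and Rragd (-0.75) fell. Rheb, the direct activator of mTORC1, rose (0.44). Eif4ebp1, the translation repressor that mTORC1 phosphorylates, was at 44.6, 61.3, 51.6 and 35.1 in the basal libraries and 166, 308, 151 and 189 in the immobilized libraries, and every immobilized library was above every basal one (log2 fold change 2.03 ± 0.19, adjusted p = 2.5e-07).

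Glucocorticoid-responsive genes were called higher in 12 of 21 cases and lower in 1 (median 0.86). Trim63, Fbxo32, both metallothioneins and Foxo1 are on this list too. Pdk4, which blocks pyruvate entry into the citrate cycle, was at 189, 206, 122 and 372 in the basal libraries and 635, 485, 471 and 1081 in the immobilized libraries. Every immobilized library exceeded every basal one (log2 fold change 1.61 ± 0.29, adjusted p = 0.00027). The co-chaperone Fkbp5 (from 29 ± 10.4 to 68.6 ± 28, log2 fold change 1.2) and the leucine zipper Tsc22d3 (from 109 ± 27.5 to 259.7 ± 34, 1.27), both standard reporters of the receptor, rose with Sgk1 (0.86). Dusp1, the MAP kinase phosphatase, fell from 60.4 ± 18.4 to 20.9 ± 4.46 (-1.46), and the receptor gene Nr3c1 gave -0.20 (adjusted p = 0.64). In all, 8 members were not called, among them Per1 (0.05), Klf9 (-0.15), Klf15 (0.55), Zbtb16 (0.55), Errfi1 (0.59) and Glul (0.22).

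About as many genes of the integrated stress response, whose transcription factor is ATF4, and of serine and one-carbon metabolism rose. Of 27 such genes, 14 were called higher and 3 lower (median 0.73). Atf4 mRNA rose from 182 ± 17.1 to 308 ± 68.2 (0.73). Atf3, an early stress factor, was at 3.93, 27.4, 4.37 and 17.9 in the basal libraries and 38.3, 96.7, 41.6 and 39.2 in the immobilized libraries. Ppp1r15a, GADD34, which restarts translation by dephosphorylating eIF2alpha, was at 24.3, 45.7, 23.2 and 27.1 in the basal libraries and 90.6, 218, 69.6 and 141 in the immobilized libraries. Immobilized libraries exceeded basal ones in both genes, by log2 fold changes of 2.21 and 1.99 (adjusted p = 0.0039 and 6.2e-05). The mitochondrial folate enzyme Mthfd2 (from 2.76 ± 0.646 to 15.9 ± 3.27, 2.16), the kinase-like Trib3 (1.39), the serine enzyme Psat1 (1.32), the asparagine synthetase Asns (0.88), the amino acid transporters Slc7a5 (1.18) and Slc38a2 (1.13) and the mTORC1 inhibitor Ddit4 (1.17) rose. Chac1, which degrades glutathione, was at 16.3, 11.7, 11.5 and 6.5 in the basal libraries and 18.9, 16.1, 41.7 and 31.9 in the immobilized libraries, and its groups overlapped (log2 fold change 1.13 ± 0.41, adjusted p = 0.038). The cytosolic folate enzymes Mthfd1 (-0.75) and Shmt1 (-0.71) and the serine phosphatase Psph (-0.93) fell. Ddit3, CHOP, gave -0.34 (adjusted p = 0.27).

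Promoters of 4 of the 23 genes of the stress response and one-carbon list with a RefSeq entry, Atf3, Chac1, Asns and Nupr1, held the composite element bound by ATF4 with C/EBP proteins (TGATGNAA, both strands), against 1.94% of the 9892 promoters. Among genes called higher the share was 2%, and among those called lower 2.55%. The 3 promoters below are those of the genes that rose, with the match in capitals; they are the 250 bases before the start in GRCm38.p6, at chr1:191183334-191183583 (minus strand), chr2:119350992-119351241 (plus strand) and chr6:7693210-7693459 (minus strand).
Atf3: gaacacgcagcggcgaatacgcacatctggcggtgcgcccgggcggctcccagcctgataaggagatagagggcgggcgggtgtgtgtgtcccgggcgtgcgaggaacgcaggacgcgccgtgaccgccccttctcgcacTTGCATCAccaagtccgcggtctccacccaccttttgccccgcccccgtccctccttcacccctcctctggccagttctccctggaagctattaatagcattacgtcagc
Chac1: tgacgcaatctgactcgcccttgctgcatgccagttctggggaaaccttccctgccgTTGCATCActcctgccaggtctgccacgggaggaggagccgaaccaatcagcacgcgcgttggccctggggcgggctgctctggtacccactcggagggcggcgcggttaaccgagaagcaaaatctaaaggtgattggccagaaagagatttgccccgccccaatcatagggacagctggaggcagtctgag
Asns: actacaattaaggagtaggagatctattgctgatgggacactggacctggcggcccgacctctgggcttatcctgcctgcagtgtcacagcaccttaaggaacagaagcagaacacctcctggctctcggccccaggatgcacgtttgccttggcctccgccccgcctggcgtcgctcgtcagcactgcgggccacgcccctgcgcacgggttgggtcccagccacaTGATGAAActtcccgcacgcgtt
The matches began 110, 193 and 23 bases before the start.

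Genes of the unfolded protein response of the endoplasmic reticulum were called higher in 13 of 22 cases and lower in none (median 0.59), and in 7 without both libraries numbered 2. Xbp1 rose from 36.8 ± 7.06 to 77.5 ± 19.3 (1.04), Hspa5, the BiP chaperone, from 143 ± 18.6 to 243 ± 66.2 (0.72), and the disulfide isomerase Pdia6 and the secreted Manf rose by 0.83 and 0.79. Cytosolic aminoacyl-tRNA synthetases gave 5 higher and 1 lower of 23, and 2 to 5 higher when single libraries were left out. Vars rose most (from 42.6 ± 5.35 to 83 ± 5.5, 0.95), and Aimp2, a scaffold of the synthetase complex, fell (from 136 ± 34.6 to 59.5 ± 18.2, -1.2).

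Genes of the translation apparatus that were called were nearly all higher. Of 77 cytosolic ribosomal protein genes, 43 were called higher and none lower, with a median of 0.45. The count was 71 without basal library 2, 26 without immobilized library 2 and 20 without basal library 3 or 4. Rpl3 was at 52.3, 68.2, 33.7 and 43.6 in the basal libraries and 163, 317, 217 and 191 in the immobilized libraries, with no overlap and the greatest change of the list (log2 fold change 2.15 ± 0.31, adjusted p = 3.1e-05), followed by Rpl10 (1.51). Ribosomal protein genes have many near-identical processed copies, between which reads may be split, so single members are uncertain. Of 45 translation factors, 11 were called higher and 2 lower. The initiation helicase Eif4a1 (from 69.6 ± 10.4 to 185 ± 61.4, 1.36) and the elongation factor Eef1a1 (from 231 ± 29.8 to 586 ± 80.5, 1.34) rose, and the cap-binding protein Eif4e fell from 97.4 ± 10.6 to 62.5 ± 3.4 (-0.63). The adult muscle isoform Eef1a2 gave -0.37 (adjusted p = 0.15). Ribosome biogenesis genes gave 6 higher and none lower of 35, led by Ddx21 (0.80) and Gnl3 (0.80). The higher share lay near the 15% over all genes. The count was 4 without basal library 4 or without both libraries numbered 2, 7 without immobilized library 3, and 20 with same-sum scaling.

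**Figure D3:**
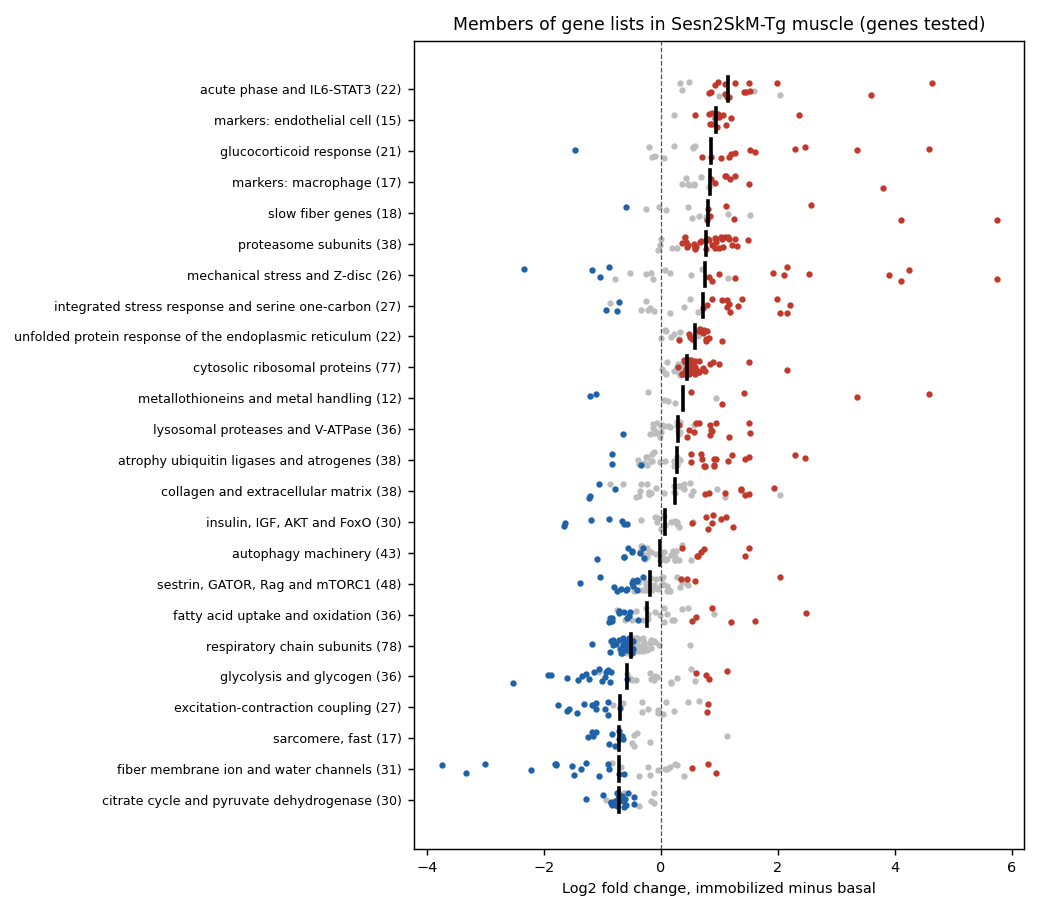
Log2 fold change, immobilized minus basal, of every tested member of 24 gene lists in Sesn2SkM-Tg muscle. Each point is 1 gene, red where called higher, blue where called lower and grey otherwise, and black bars are the list medians, from -0.72 for the citrate cycle to 1.15 for acute-phase genes; the vertical line is the median of all genes, 0.003.

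Among the genes that fell most were channels of the fiber membrane. Kcng4 (ENSMUSG00000045246, chr8:119623854-119635680 in GRCm38), a modulatory potassium channel subunit of fast fibers, was at 43.1, 75.9, 32.1 and 56.1 in the basal libraries and 5.2, 2.14, 2.77 and 1.72 in the immobilized libraries. Aqp4, the water channel of fast fibers, was at 75, 46.5, 63.2 and 94.9 in the basal libraries and 12.2, 1.22, 21.7 and 2.32 in the immobilized libraries. In both genes no immobilized library reached the lowest basal library, and the immobilized values of Aqp4 were the more scattered (Kcng4 log2 fold change -3.74 ± 0.36, adjusted p = 4e-07; Aqp4 log2 fold change -3.32 ± 0.51, adjusted p = 5.8e-05). 16 of 31 channel and pump genes were called lower and 3 higher (median -0.71). Lrrc38, a gamma subunit of BK channels, fell from 22.2 ± 2.67 to 2.13 ± 1.44 (-3.0), the sodium pump subunit Atp1b2 from 149.9 ± 10.1 to 31.8 ± 6.2 (-2.22), the inward rectifier Kcnj12 by 1.81, the chloride channel Clcn1, which sets the resting conductance, by 1.49, and the sodium channel Scn4a with the subunit Scn4b by 0.88 and 1.79 on the log2 scale. Aqp1, the water channel of capillaries, rose (0.94).

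Genes that couple excitation to contraction fell with them. Of 27, 13 were called lower and 2 higher (median -0.69). The calcium release channel Ryr1 fell from 4345 ± 823 to 1993 ± 236 (-1.11), its voltage sensor Cacna1s by 0.91, the calcium store protein Casq1 from 2091 ± 208 to 708 ± 199.9 (-1.61), the junctional protein Jph2 by 1.57 and the calcium buffer Pvalb from 6980 ± 998 to 2824 ± 459 (-1.31). The fast calcium pump Atp2a1 was at 27667, 27292, 26580 and 26380 in the basal libraries and 16052, 12284, 14702 and 15194 in the immobilized libraries, and every immobilized value was below every basal one (log2 fold change -0.90 ± 0.20, adjusted p = 0.0022). The slow-muscle pump Atp2a2 (0.81) and the pump inhibitor sarcolipin, Sln (0.79), rose.

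At the neuromuscular junction, Ache, acetylcholinesterase, was at 53.6, 94.2, 57.2 and 37 in the basal libraries and 7.8, 7.39, 8.86 and 8.26 in the immobilized libraries. The immobilized libraries were nearly equal and well below the basal range (log2 fold change -2.68 ± 0.37, adjusted p = 2.1e-05). The agrin receptor Lrp4 fell from 19.5 ± 4.81 to 6.0 ± 1.45 (-1.55) and the adult receptor subunit Chrne by 1.27, while the subunits Chrna1 (1.5) and Chrnb1 (1.05) rose. The list as a whole gave 5 higher and 3 lower of 19 (3 higher without basal library 4 or without immobilized library 2). Of 25 regulators of denervation and myogenesis, 5 were called higher and 4 lower, shares near the 15 and 15.7% over all genes. Runx1 (from 5.46 ± 4.22 to 22.3 ± 11.2, 1.94), Gadd45a (from 24.4 ± 6.48 to 80.2 ± 30.6, 1.64), Cdkn1a (1.64), Hdac4 (1.33) and Myf6 (1.65) rose. Dach2 (-1.52), Hdac9 (-0.92) and the cardiac actin Actc1 (-1.52) fell. Myog gave 0.74 (adjusted p = 0.068) and Musk 0.66 (adjusted p = 0.29).

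Genes of the fast sarcomere were called only lower, and the called genes of slow fibers were mostly higher. Myh4, the myosin of the fastest fibers, was at 48478, 30186, 62759 and 49915 in the basal libraries and 22283, 17318, 19362 and 24520 in the immobilized libraries. The groups did not overlap, and it lost more normalized counts than any other gene (log2 fold change -1.16 ± 0.27, adjusted p = 0.003). 11 of 17 fast sarcomere genes were called lower and none higher (median -0.71), 7 without both libraries numbered 2 and 3 under quantile normalization, which compresses the highest values. Titin, Ttn (-1.24), fast myosin binding protein Mybpc2 (-1.1) and the light chains Mylpf (-0.83) and Myl1 (-0.71) fell, but Acta1, skeletal actin, gave -0.19 (adjusted p = 0.55). Of 18 slow fiber genes, 8 were called higher and 1 lower (median 0.8), among them the slow light chain Myl2 (from 2.76 ± 3.01 to 21.5 ± 17.8, 2.56) and the troponins Tnnc1 (1.25) and Tnni1 (1.12). Csrp3 and Ankrd2, both called higher, are on this list as well. Mybpc1 was the 1 called lower (-0.6), and 9 were not called, among them Myl3 (0.09) and Tnnt1 (0.53). The slow myosin Myh7 (from 3.2 ± 1.56 to 9.08 ± 7.51; adjusted p = 0.39) and the fast oxidative Myh2 (from 1331 ± 754 to 2481 ± 819; adjusted p = 0.26) varied too much between libraries to pass.

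Called genes of energy metabolism were mostly lower. Of 36 glycolysis and glycogen genes, 17 were called lower and 4 higher (median -0.58). The glycerol phosphate enzyme Gpd1 was at 627, 690.5, 581 and 604 in the basal libraries and 139, 93.5, 107 and 94.2 in the immobilized libraries, with no overlap (log2 fold change -2.53 ± 0.23, adjusted p = 1.9e-07). Eno3 fell from 6163 ± 1691 to 2290 ± 401 (-1.41), Tpi1 from 2492 ± 730.4 to 807 ± 153 (-1.61), Ldha by 1.23, the phosphofructokinase Pfkm by 0.95, and the glycogen enzymes Pygm and Phkg1 by 0.94 and 1.88 on the log2 scale. The glycogen branching enzyme Gbe1 (1.14) and Ugp2, which supplies UDP-glucose (0.83), rose. Creatine kinase, Ckm, fell from 22266 ± 4927 to 12359 ± 1790 (-0.84).

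All 24 called genes of the 30 for the citrate cycle and pyruvate dehydrogenase were lower (median -0.72), led by Idh3a (from 732 ± 52.2 to 306 ± 51.6, -1.27) and citrate synthase, Cs (from 975 ± 115 to 496 ± 77.4, -0.98). Without both libraries numbered 2 the count was 14, and with same-sum scaling 15. Respiratory chain genes gave 38 lower and none higher of 78 (median -0.51), for example Ndufs1 (from 595 ± 31.8 to 266 ± 49.1, -1.18). This count rested on single libraries, since it was 11 without basal library 2, 10 without immobilized library 2, 19 without immobilized library 4 and 4 without both libraries numbered 2; with same-sum scaling it was 7. The mitochondrially encoded mt-Nd1 fell from 23309 ± 6769 to 14475 ± 3652 normalized counts (log2 fold change -0.69 ± 0.24, adjusted p = 0.033), whereas mt-Nd4 (-0.57, adjusted p = 0.082) and mt-Co1 (-0.41, adjusted p = 0.22) did not pass the test.

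The regulators of oxidative metabolism Perm1 (from 318 ± 104 to 76 ± 13.3, -2.01), Ppargc1b (-1.12) and Esrra (-0.83) fell, 3 of the 4 called, all lower, in a list of 16 around PGC-1, and Ppargc1a, PGC-1alpha, gave -0.28 (adjusted p = 0.54). Fatty acid genes were mixed, with 6 higher and 11 lower of 36 (median -0.24); the lower count was 7 without basal library 2 and 5 without immobilized library 2, and same-sum scaling turned the median to 0.07. Mitochondrial import and oxidation enzymes such as Cpt1b (-0.84) and Acadm (-0.84) fell, while the lipid handlers Angptl4 (from 1.46 ± 1.06 to 12.6 ± 5.55, 2.48), Cd36 (0.87) and Fabp4 (1.2) rose; Fabp4 is also on the endothelial marker list, of which 14 of 15 genes were called higher.

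Polyamine metabolism held some of the deepest changes. Smox, spermine oxidase, was at 229.6, 383, 323 and 296 in the basal libraries and 33.5, 30.8, 34.1 and 28.1 in the immobilized libraries. Its immobilized values lay close together and far below the basal ones (log2 fold change -3.22 ± 0.22, adjusted p = 1e-08). Amd1, which makes the aminopropyl donor, fell from 522 ± 129.6 to 109 ± 16.1 (-2.22), and Odc1, ornithine decarboxylase, rose from 62.8 ± 14.7 to 234 ± 97.8 (1.81) together with spermidine synthase, Srm (0.85). In all, 3 of 14 genes were called higher and 6 lower (median -0.22; 0.09 with same-sum scaling), with 3 lower without basal library 3 and 1 higher without immobilized library 2.

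The other genes with the strongest decreases did not share 1 pathway. Plcd4, a phospholipase, fell from 64.7 ± 4.13 to 6.3 ± 2.15 (-3.22), Ky, a Z-disc protease-like protein, from 198 ± 53.1 to 23.6 ± 12.5 (-3.18), and Mettl21c, a muscle methyltransferase, from 41.4 ± 5.43 to 4.18 ± 2.27 (-3.14). Smco1 (-2.69), the adhesion molecule Mdga1 (-2.97), the semaphorin Sema6c (-2.62) and the phosphodiesterase Pde4a (-2.58) fell too. On the other side stood Eda2r, the ectodysplasin A2 receptor. It was at 11, 7.09, 20 and 15.1 in the basal libraries and 133, 226, 129 and 227 in the immobilized libraries, with no overlap (log2 fold change 3.69 ± 0.36, adjusted p = 4.7e-07). Card14, an NF-kappaB scaffold, rose from 1.75 ± 1.99 to 49.1 ± 63.1 (3.61). Eda2r led a list of 21 p53 targets, of which 9 were called higher and 2 lower (median 0.45); Bax (0.86) and Bbc3 (1.00), which act in cell death, rose and Ccng1 (-1.17) fell.

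The counts of the next lists stand beside 15% higher and 15.7% lower over all genes. Of 19 clock genes, 2 were called higher and 6 lower (median -0.11). Same-sum scaling gave a median of 0.19, with 3 higher and 3 lower. Dbp fell from 70.8 ± 10.3 to 26.5 ± 14 (-1.55) and Arntl rose by 0.78. Among antioxidant genes, 8 of 32 were called higher and 4 lower, with rises of thioredoxin, Txn1 (1.38), Srxn1 (1.39) and Gsr (1.14) and a fall of the mitochondrial Sod2 (-0.93). BMP and myostatin pathway genes gave 6 higher and 1 lower of 28, 3 higher without immobilized library 2, and 0 to 3 lower when single libraries were left out. Smad1 (0.92) and the target Id3 (0.89) rose. In the dystrophin complex 4 of 22 were called higher and 6 lower (3 lower without basal library 4 or without immobilized library 4; 6 higher and 1 lower with same-sum scaling), sarcospan, Sspn, falling (-1.08) and the integrin Itga7 (1.05) rising. Of 22 amino acid transporters, 6 were called higher and 3 lower; the lower calls fell to 0 without immobilized library 2 or 4 and to 1 without basal library 1, 3 or 4, and same-sum scaling gave 8 higher and 0 lower.

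Markers of other cell types moved with the immobilization, and in bulk muscle fewer cells of a type and less RNA per cell cannot be told apart. The 16 markers of muscle fibers, the labelled tissue, summed to 176803 to 208899 normalized counts in the basal and 98626 to 133850 in the immobilized libraries. Of these, 8 were called lower and 1 higher (median -0.64). Csrp3, the 1 called higher, and Kcng4 and Aqp4, both called lower, are among the markers given for this comparison. Quantile normalization gave 4 lower and 2 higher (median -0.09). Endothelial markers summed to 389 to 568 in the basal and 788 to 997 in the immobilized libraries, and 14 of 15 were called higher (median 0.94), for example the junction protein Cldn5 (from 5.96 ± 2.02 to 34 ± 6.58, 2.36) and Pecam1 (from 44.2 ± 6.45 to 96.8 ± 12.3, 1.11). Pericyte and smooth muscle markers gave 7 of 9 higher (median 0.89), including Acta2 (1.48), and Schwann cell markers 8 of 10 (median 0.87).

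Macrophage markers summed to 72.0 to 93.3 normalized counts in the basal libraries and to 194.3, 371.4, 120.1 and 241.5 in immobilized libraries 1 to 4. Of 17, 8 were called higher and none lower (median 0.84), but 2 without both libraries numbered 2, 3 without basal library 3 or without immobilized library 2, and 5 without immobilized library 4. Cd68, a lysosomal membrane protein of macrophages, was at 2.83, 3.51, 2.06 and 2.48 in the basal libraries and 29.5, 105, 44.7 and 44.7 in the immobilized libraries (log2 fold change 3.79 ± 0.37, adjusted p = 4e-07). The receptor Csf1r (from 9.63 ± 1.92 to 13.2 ± 4.53; 0.36, adjusted p = 0.38) and complement C1qa (from 7.08 ± 1.46 to 10.8 ± 5.26; 0.43, adjusted p = 0.33) did not pass. Neutrophil markers reached a sum of 66.2 in immobilized library 2 and S100a8 was the 1 of 7 called (1.75); none was called without basal library 1, 3 or 4 or without immobilized library 2, and 4 were called without immobilized library 4. The part of these cells in the acute-phase and lysosomal increases was not tested.

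Fibroblast markers gave 1 higher and 1 lower of 12 (median -0.14, 0.17 with same-sum scaling), and the collagens were split. The matrix list gave 8 higher and 4 lower of 38 (5 higher without immobilized library 2). The collagen VI chains fell: Col6a1 was at 54.9, 54.8, 38.3 and 52.9 in the basal libraries and 25.4, 25.6, 20.3 and 23.2 in the immobilized libraries and Col6a2 at 50.6, 64.7, 36.7 and 68.5 in the basal libraries and 21.6, 30.5, 16.6 and 24 in the immobilized libraries. In both, the highest immobilized library was below the lowest basal one, with log2 fold changes of -1.05 and -1.21 (adjusted p = 0.00011 and 0.00032), and Col6a3 fell by 0.78. The cross-linking enzyme Lox (1.93), biglycan, Bgn (1.44), elastin, Eln (1.37), and Thbs1 (1.51) rose, and Col1a1 gave -0.42 (adjusted p = 0.6). Of 32 cell cycle genes, 3 were called higher and 4 lower, smaller shares than over all genes, with 1 higher without basal library 4 or without immobilized library 2, and 7 higher and 3 lower with same-sum scaling. Mki67 gave 0.94 (adjusted p = 0.12), Mcm6 rose by 1.0, and Aurka and Rrm1 fell by 1.48 and 1.29. Markers of adipocytes and red cells gave no call, and tendon and satellite cell markers 1 higher each, of 7 and 8. Without both libraries numbered 2, the red cell median moved from 0.23 to 1.29, and 2 of 6 red cell genes were called higher.

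**Figure D4:**
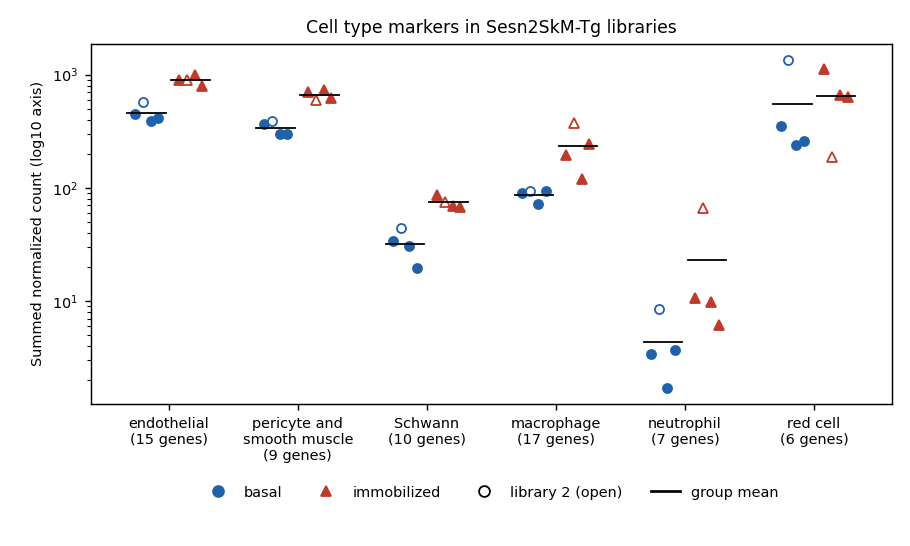
Summed normalized counts of the markers of 6 cell types in each of the 4 basal and 4 immobilized Sesn2SkM-Tg libraries (log10 axis); open symbols mark library 2 of each group. Endothelial, pericyte and Schwann cell sums were higher in every immobilized library, the macrophage sum reached 371 in immobilized library 2, and the red cell sum was highest, at 1344, in basal library 2.

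The response to immobilization was then set beside that of WT and Sesn1SkM-Tg muscle of the same set, with 4 basal and 3 immobilized libraries each, all from other mice. In WT muscle 4018 genes (29.3%) were called, and in Sesn1SkM-Tg muscle 4756 (34.7%). By the interaction test, the Sesn2SkM-Tg response differed from the WT response in 1 gene of 13705 (0.0073%), which was lower, and in none higher (0%), with 1008 genes at an unadjusted p under 0.05. That gene was Cbr2, carbonyl reductase 2, a mitochondrial enzyme. It (ENSMUSG00000025150, chr11:120729489-120732114 in GRCm38) was at 31.3, 39, 37.5 and 33.7 in the basal libraries and 12.1, 12, 12.2 and 14.7 in the immobilized libraries. The immobilized libraries lay together far below the basal ones, with a log2 fold change of -1.4 ± 0.16 in Sesn2SkM-Tg muscle against 0.12 ± 0.17 in WT muscle (difference -1.52 ± 0.23, adjusted p = 0.024). The call was lost in 8 of the alternatives, among them when basal library 2, basal library 3 or immobilized library 3 of Sesn2SkM-Tg, or WT basal library 3 or immobilized library 3, was left out, without both Sesn2SkM-Tg libraries numbered 2, or when the fit held just the 4 groups compared (adjusted p = 0.051 to 0.1 in the 8 settings).

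Against the Sesn1SkM-Tg response 15 genes differed (0.109%), 7 higher (0.0511%) and 8 lower (0.0584%), with 1407 genes at an unadjusted p under 0.05. The count rested on single libraries. It was 231 without Sesn1SkM-Tg immobilized library 1 and 28 without Sesn2SkM-Tg immobilized library 2, but 9 without basal library 1 of either transgenic line, 8 without basal library 3 of either line or without Sesn2SkM-Tg immobilized library 3, and 7 without Sesn1SkM-Tg immobilized library 2. Npc1, Plin4 and Col6a1 passed in every alternative run, whereas Txnip missed the threshold in 18, Foxo6os in 15, Slc15a4 in 12, Podn in 9, Asb2, Fndc1 and Tmem140 in 7 each, and Col6a2 and Cbr2 in 1 each. Npc1 rose in Sesn2SkM-Tg muscle and had -0.89 ± 0.18 in Sesn1SkM-Tg muscle (difference 1.75, adjusted p = 0.0024). Txnip, an inhibitor of thioredoxin and of glucose uptake, was at 429.7, 403, 395 and 346 in the basal libraries and 620.4, 323, 614 and 503 in the immobilized libraries, with overlapping groups. Its log2 fold change of 0.35 stood against -1.05 in Sesn1SkM-Tg muscle (difference 1.39, adjusted p = 0.048). Asb2, a ubiquitin ligase adaptor for filamins, gave 0.27 against -1.01 (difference 1.28), Plin4, a lipid droplet protein, 0.34 against -1.29 (difference 1.63), Tmem140 1.61 against -0.07 and the lysosomal transporter Slc15a4 1.21 against 0.05. In the other direction stood Col6a1 (-1.05 against 0.79, difference -1.84, adjusted p = 0.0024) and Col6a2 (-1.21 against 0.69, difference -1.9, adjusted p = 0.014), with Cbr2 (difference -1.38), the matrix genes Podn (difference -1.49) and Fndc1 (difference -1.62), and the antisense RNA Foxo6os (difference -1.82), whose reads cannot be told apart from those of Foxo6 where the counting did not use strand.

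The next genes, atrophy and stress genes chosen after their values were seen, had unlike estimates but did not pass the interaction test against either genotype, and their values are given side by side. Trim63 gave 2.46 ± 0.28 in Sesn2SkM-Tg, 1.6 ± 0.30 in WT and 0.67 ± 0.30 in Sesn1SkM-Tg muscle; its difference from WT was 0.86 ± 0.41 (adjusted p = 0.67). For Fbxo32 the 3 log2 fold changes were 2.29, 1.08 and 0.14, with a difference from WT of 1.21 ± 0.49 (adjusted p = 0.61) and from Sesn1SkM-Tg of 2.15 ± 0.49 (adjusted p = 0.07). Pdk4 gave 1.61, -0.32 and -0.27, a difference from WT of 1.93 ± 0.42 (adjusted p = 0.13). Chac1 gave 1.13, -1.07 and -0.84, and Ppp1r15a 1.99, 0.76 and 0.35, with differences from WT of 2.2 ± 0.60 and 1.24 ± 0.45 (adjusted p = 0.26 and 0.52). After adjustment over all 13705 genes none of these differences passed, with 3 immobilized libraries in each other genotype. A miss here is not evidence that the genotypes responded alike.

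At the level of lists, the glucocorticoid list had medians of 0.86 in Sesn2SkM-Tg, 0.34 in WT and -0.18 in Sesn1SkM-Tg muscle, and the proteasome list 0.78, 0.7 and 0.57. Macrophage markers had medians of 0.84, 2.24 and 2.36, with 8, 17 and 17 of 17 called higher, and their sum reached 120.1 to 371.4 in immobilized Sesn2SkM-Tg against 314.2 to 636.9 in immobilized WT libraries. Matrix genes had medians of 0.24, 0.69 and 1.23, cell cycle genes 0.29, 0.8 and 0.91, and endothelial markers 0.94, 0.38 and 0.56. These medians are descriptions. No member of any list passed the interaction test against WT.

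**Figure D5:**
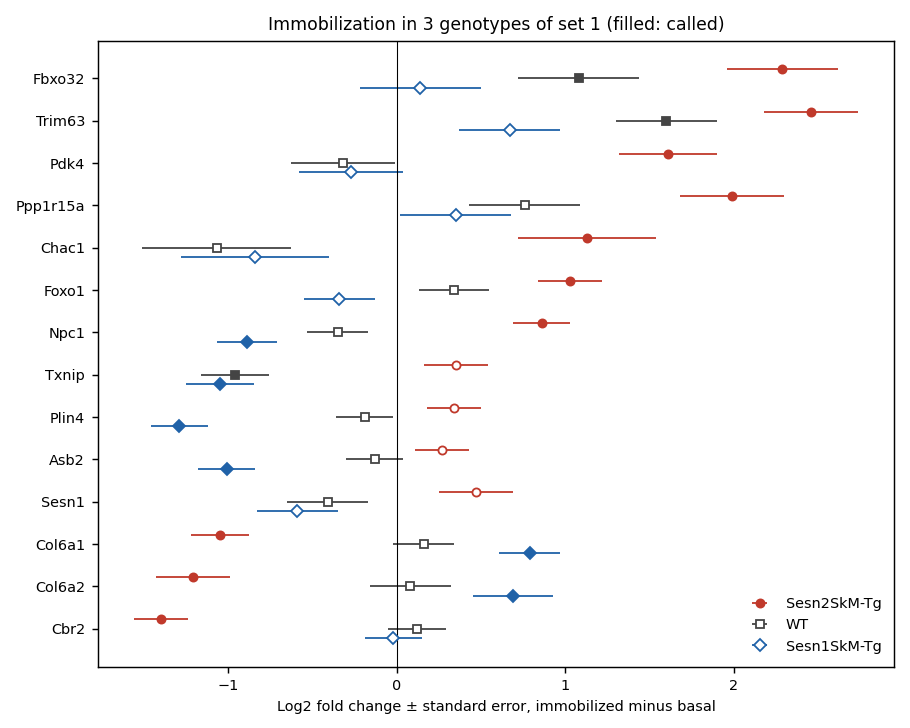
Log2 fold change, immobilized minus basal, with its standard error, of 14 named genes in Sesn2SkM-Tg (4 against 4 libraries), WT and Sesn1SkM-Tg muscle (3 against 4 libraries each). Filled symbols passed the call within their genotype; Cbr2 differed from WT, and Npc1, Txnip, Asb2, Plin4, Col6a1, Col6a2 and Cbr2 from Sesn1SkM-Tg, by the interaction test.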

How the data were processed

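RNA of tibialis anterior muscle was sequenced (NEBNext Ultra libraries, Illumina HiSeq) in 2 sets. Per the labels and the study's methods, the authors checked reads with FastQC and trimmed them with cutadapt 1.7.1. They estimated gene counts with RSEM 1.2.20 on the mouse transcriptome (GRCm38) and normalized them with limma. The labels also name edgeR, without a version. The deposited table holds these normalized counts on a linear scale, here treated as a signal that is neither raw counts nor exact CPM; the strand setting is not given in the sources used here, no value was 0 and the values held no steps of whole reads, which leaves the depth of each sample unknown. Columns were matched to samples by name.

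Of 13809 genes, 13705 that reached 1 in any library of set 1 were tested on log2(value + 1) with limma 3.58.1 (R 4.3.3): lmFit on all 22 libraries of set 1, 1 coefficient per group, and eBayes with trend, two-sided, with Benjamini-Hochberg adjustment over all genes. Interaction contrasts compared genotypes. Calls needed an adjusted p below 0.05 and a log2 fold change of 0.25 or more in size. The method was tested on simulated data. Gene coordinates are from GENCODE M21, and promoters from RefSeq (GRCm38.p6). Members, gene lists and tests were chosen with earlier results of these data known, so list counts are descriptions. Named genes were the sestrins and 4 given markers, the 12 protein-coding genes that changed most in each direction (mean of at least 5 in the higher group, no overlap, no Gm, Rik or -ps symbols), the largest called members of each list with members whose role is needed, the 6 largest interactions and the 6 largest linear changes in each direction; 4 genes are not reported here. Uvrag, Slc7a2, Slc38a3 and the other genes of the closing observations were added after their values were seen. The same holds for Cd63, Ctss, Mybpc1, Myl3, Tnnt1, Per1, Klf9, Klf15, Zbtb16, Errfi1 and Glul. Alternatives changed the filter, pseudocount (0.1 or none), scaling, variance model, threshold, block and libraries in the fit. Set 2 was not used here, since the comparison lies within set 1 and how the sets were normalized together is not given in the sources used here.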

Additional observations from a re-analysis of the deposited data

Results flagged for a closer look

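In 96 groups of 4 libraries (36 genes with every value printed, and marker sums), 12 had 1 library whose gap to the nearest other was a larger part of the group's range than Dixon's 95% critical value for 4 samples, which chance passes in about 1 of 20 groups. In 7 of the 12 the distant library was number 2. In immobilized library 2 these were Csrp3 at 2103, Lcn2 at 228, Atf3 at 96.7 and the neutrophil marker sum at 66.2, each the highest of its group. In basal library 2 they were Sesn1 at 7.0 and Trim63 at 138, the lowest, and the red cell sum at 1344, the highest. The others were Mt2 at 33.6 in basal library 4, Cbr2 at 14.7 in immobilized library 4, and Col6a1 at 38.3, the macrophage sum at 72.0 and the fibroblast sum at 908 in basal library 3.

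The immobilization effect differed from that in WT muscle for Cbr2 (by -1.52 on the log2 scale, interaction test). From that in Sesn1SkM-Tg muscle it differed for Npc1 by 1.75, Tmem140 by 1.68, Plin4 by 1.63, Txnip by 1.39, Asb2 by 1.28 and Slc15a4 by 1.16, and for Col6a2 by -1.90, Col6a1 by -1.84, Foxo6os by -1.82, Fndc1 by -1.62, Podn by -1.49 and Cbr2 by -1.38.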

How the results depend on the processing

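The 2055 higher and 2149 lower calls moved by more than 1.5 times in 2 settings: scaling to the same sum gave 3934 and 958, by its own construction since the immobilized libraries held the smaller sums, and requiring a log2 fold change of 1 or more in size gave 482 and 468. With 1 Sesn2SkM-Tg library left out they ranged from 1554 to 2159 higher and 1565 to 2312 lower. The 1 call against WT became 2 with eBayes without trend, 0 with the replicate block (Cbr2 -1.49, adjusted p = 0.064), 3 without both Sesn2SkM-Tg libraries numbered 2, and 0 to 5 with 1 library left out. The 15 calls against Sesn1SkM-Tg became 23 with quantile normalization, 29 without both libraries numbered 2, and 7 to 231 with 1 library left out; the cause was not tested. The labels' numbers do not say that libraries were paired, and same-numbered basal and immobilized libraries deviated together by correlations of only 0.13, 0.13, 0.02 and 0.06. With the replicate block, 2039 genes were called higher and 2122 lower, and 22 against Sesn1SkM-Tg.

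Among 275 of the genes named, signs turned only for those that did not pass the test. With same-sum scaling the log2 fold change became 0.12 for Acta1, 0.11 for Nr3c1, 0.22 for Podn and 0.03 for Ppargc1a, with quantile normalization 0.43 for Acta1 and 0.24 for mt-Co1. Without both libraries numbered 2 it was 0.02 for Acta1 and 0.02 for Podn, and with 1 library left out it ranged from -0.23 to 0.04 for Podn (highest without immobilized library 3) and from -0.05 to 0.32 for Sesn2 (lowest without basal library 1). Of these 275 genes, 17 missed their call with quantile normalization, 26 with same-sum scaling, 28 without both libraries numbered 2 and 95 at a log2 fold change of 1, and 7 to 27 with 1 Sesn2SkM-Tg library left out (most without immobilized library 2, then 18 without basal library 1). The removal of both libraries numbered 2 was chosen after the data were seen. Depth is unknown, so counting error could not be given and low genes rest on the spread between libraries alone.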

Other observations

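The amino acid transporters that rose encode the system L subunits Slc7a5 (1.18) and Slc3a2 (from 20.3 ± 2.91 to 35.7 ± 3.8, log2 fold change 0.79), the cationic transporter Slc7a1 (1.04) and Slc38a2, the SNAT2 transporter of small neutral amino acids (from 110.5 ± 39.7 to 237 ± 60.6, 1.13). Those that fell were Slc7a2, the second cationic transporter (from 65.6 ± 26.4 to 34.9 ± 10.5, -0.83), and the glutamine and neutral amino acid transporters Slc38a3 (-0.66) and Slc38a4 (-0.79). None of the decreases was called with same-sum scaling, without immobilized library 2 or without immobilized library 4.

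Among p53 targets, Phlda3, which restrains AKT at the membrane, rose from 241 ± 33.8 to 386 ± 27.6 (0.68 on the log2 scale, adjusted p = 0.00099), the polo-like kinase Plk2 by 1.46 and the antiproliferative Btg2 by 1.23 on the log2 scale. In the clock list, the E-box repressor Bhlhe41 fell from 67.5 ± 11 to 27.1 ± 1.05 (-1.27), Per3 by 0.96 and Ciart by 0.83. In the dystrophin complex, the dystrophin relative utrophin, Utrn, rose from 22 ± 6.11 to 35.9 ± 7.41 (0.71), and the sarcoglycan Sgcd fell from 25.6 ± 15 to 8.51 ± 1.16 (-1.23). The glutathione synthesis subunit Gclm rose from 14.7 ± 2.42 to 34.7 ± 10.5 (1.15).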
